A study of Mus musculus with 6 samples.

Results

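Group 2 innate lymphoid cells of the mouse heart were taken by a marker rule from 6 single-cell RNA libraries, and 91 of 32761 kept cells met it. A cell was kept with at least 200 genes and at most 10% mitochondrial UMIs, a UMI (unique molecular identifier) being the tag that lets each captured RNA molecule be counted once. A member held at least 3 UMIs summed over Gata3, Rora, Il1rl1, Il17rb, Il5 and Il13, with no single one of these needed, and at least 1 UMI of Il7r. It held no UMI of Cd3e, Cd3d, Cd3g, Cpa3 or Fcer1a, fewer than 10 UMIs of the 3 C1q genes, fewer than 2 of Cd79a and Cd79b and fewer than 3 of Col1a1 and Dcn. The cells were thus chosen by the measured levels of these genes, which are given as a description, without a test.

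The libraries came from cells positive for CD45, the pan-leukocyte surface protein, from hearts of C57Bl6J mice at 28 days. Sham-treated hearts with the genotype label WT gave 2 libraries, hearts given a single fraction of 12 Gy with a small animal irradiator and labelled WT gave 2, and hearts given the same dose and labelled STING KO, whose titles also carry the word Tmem, gave 2. No sham library of the STING KO label was among them, so the genotype label could be compared only after irradiation. The labels gave no batch, age, sex or animal, and whether replicate libraries stem from different mice is not given. All p-values here rest on library-to-library spread, part of which may be technical. STING is the adaptor of cytosolic DNA sensing, encoded by Tmem173. Tmem173 UMIs were found in every library, at 33.0 to 45.7 CPM (counts scaled to the same total of UMIs in each library) over all kept cells, and since a 3′ tag can lie outside an altered part of a gene this checked nothing about the label.

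Group 2 innate lymphoid cells are tissue-resident lymphocytes without a rearranged antigen receptor. They depend on the transcription factors GATA3 and RORα and on interleukin 7, respond to the alarmins IL-33 and IL-25 through ST2 (Il1rl1) and the IL-25 receptor (Il17rb), and secrete IL-5, IL-13, GM-CSF (Csf2) and the epidermal growth factor family ligand amphiregulin (Areg). Through these products they act on eosinophils, macrophages and stromal cells, and they are few in the resting heart.

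The 2 sham libraries held 33 and 23 members, the 2 irradiated WT libraries 2 and 9, and the 2 irradiated STING KO libraries 11 and 13. As a share of all kept cells this was 0.703% (exact binomial 95% interval 0.484% to 0.986%, 33 of 4695 cells) and 0.370% (0.235% to 0.554%, 23 of 6219) in sham hearts. It was 0.0573% (0.00694% to 0.207%, 2 of 3492) and 0.142% (0.0650% to 0.270%, 9 of 6335) in irradiated WT hearts. In irradiated STING KO hearts it was 0.188% (0.0939% to 0.336%, 11 of 5852) and 0.211% (0.112% to 0.360%, 13 of 6168). Both sham libraries lay above all 4 irradiated libraries, and both STING KO libraries lay above both irradiated WT libraries. These intervals cover counting error only.

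The mean share was 0.536% ± 0.235 (SD, n = 2) in sham and 0.0997% ± 0.0600 (SD, n = 2) in irradiated WT hearts, 5.38-fold lower. It was 0.199% ± 0.0161 (SD, n = 2) in irradiated STING KO hearts, 2.69-fold below sham and 2.00 times the irradiated WT mean. With 2 libraries against 2, the two-sided exact permutation test gave p = 0.333 for each of these 3 differences, which is the smallest p it can give, so none could pass a threshold of 0.05. The share is relative to the other cells of the library: fewer group 2 innate lymphoid cells and more of the rest cannot be told apart. Against lymphoid cells alone, that is members together with the cells of a T cell gate and of an NK gate, members made up 8.62% and 4.09% in sham, 0.787% and 2.75% in irradiated WT and 3.72% and 3.29% in irradiated STING KO hearts. The T cell gate (at least 2 UMIs of the Cd3 genes) took 3.83% ± 0.694 (SD, n = 2) of sham and 2.87% ± 0.758 (SD, n = 2) of irradiated WT cells, groups that overlapped, and 2.67% ± 0.630 (SD, n = 2) of irradiated STING KO cells, 1.44-fold below sham without overlap. The NK gate (at least 3 UMIs of Ncr1, Klrb1c, Klre1 and Gzma with no Cd3 UMI) took 4.23% ± 0.163 (SD, n = 2) and 3.25% ± 0.796 (SD, n = 2), 1.30-fold lower after irradiation, and 2.86% ± 0.305 (SD, n = 2) in irradiated STING KO hearts, 1.48-fold below sham, both without overlap with sham.

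The label was then set beside unsupervised clusters. All kept cells were clustered, and the cluster with most members was clustered again; 1 of its 12 sub-clusters, with 127 cells, was led by Csf2, Gm20186, Hilpda, Rora, Arg1, Gata3, Areg, Il1rl1, Il2ra and Lmo4. It held 65 of the 91 members (71.4%, exact binomial 95% interval 61.0% to 80.4%). In sham hearts 52 of 56 members (92.9%, 82.7% to 98.0%) lay in this sub-cluster. In irradiated hearts fewer did, 13 of 35 (37.1%, 21.5% to 55.1%): 2 of 2 and 2 of 9 in irradiated WT libraries and 6 of 11 and 3 of 13 in irradiated STING KO libraries. The irradiated cells are therefore called cells that met the rule, and several results on them are also given for those inside the sub-cluster. The intervals here pool cells of several libraries, and in irradiated hearts of 2 genotype labels. They cover counting error only, not the spread between libraries. The sub-cluster was picked as the one with most members, mainly sham cells, and genes of the rule were not kept out of the clustering. A high share of sham members inside it was thus partly built in and is no independent check of the label.

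Members outside the sub-cluster differed from those inside in depth and in genes of other cell types. The 65 members inside had a median of 3672 UMIs per cell and the 26 outside a median of 13597. Of these 26, 22 were from irradiated libraries, 14 held UMIs of Il1rl1 alone among the 6 required genes and 4 of Rora alone, while all 65 inside held at least 2 of the 6. At least 10 UMIs of Lyz2, a lysozyme gene of macrophages and monocytes, were found in 18 of the 26, and at least 10 of H2-Ab1, a class II presentation gene, in 17. The 26 cells together held 0 Il5 and 2 Il13 UMIs. By cluster, 8 of the 26 lay in a dendritic cell cluster and the others in 8 further clusters. At the edge of the rule, 22 members had exactly 3 UMIs of the required genes, of which 7 lay in the sub-cluster, and 19 cells that met every other condition had exactly 2, of which 2 did.

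**Figure D1:**
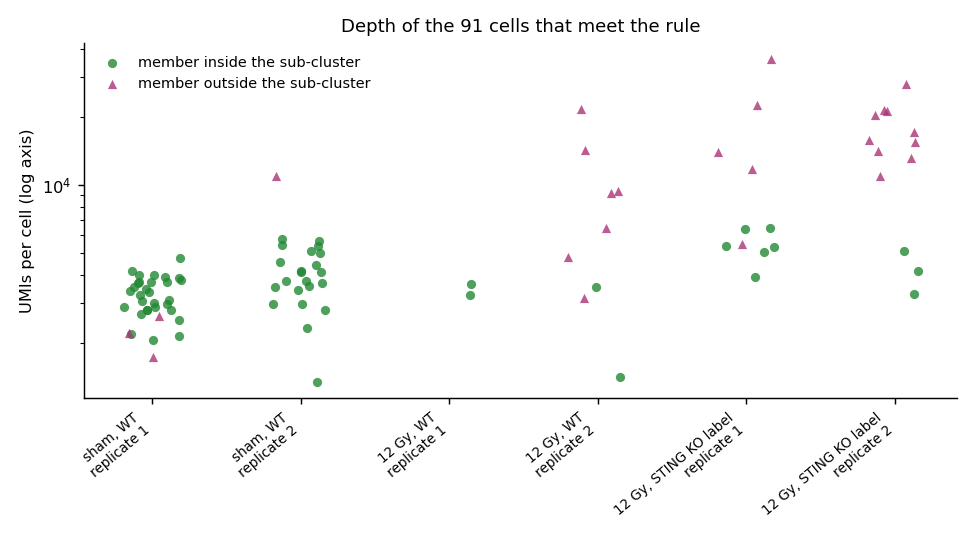
UMIs per cell (log axis) for each of the 91 members by library, circles for the 65 members inside the Csf2-Rora-Gata3 sub-cluster and triangles for the 26 outside. Triangles are few in the sham libraries (4 of 56 members) and frequent in 3 of the 4 irradiated ones (22 of 35 members in all 4), where they lie at a median of 14159.5 UMIs against 4188 for the circles.

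The sub-cluster, whose cells need not meet the rule, gave the same order of sham and irradiated hearts. It was picked as the one with most members, mainly sham cells, so this order is not independent of the rule. It held 54 and 55 cells in the sham libraries, 3 and 5 in irradiated WT and 6 and 4 in irradiated STING KO libraries, that is 1.15% and 0.884%, 0.0859% and 0.0789%, and 0.103% and 0.0649% of kept cells. Its mean share was 12.3-fold lower in irradiated WT than in sham hearts and 1.02 times as high in STING KO as in WT irradiated hearts, where the 2 groups overlapped. The 2.00-fold step between genotype labels under the rule was thus not seen in the sub-cluster, and it was 1.11-fold where the rule was applied after thinning each cell to 2000 UMIs. The sub-cluster also held 62 cells that failed the rule, 57 of them from sham hearts: 30 held a Cd3 UMI, 19 no Il7r UMI, 13 at least 2 Cd79 UMIs, 11 at least 10 C1q UMIs, 6 fewer than 3 UMIs of the required genes and 1 a mast cell UMI, some for more than 1 reason. Cells of the T cell gate made up 13 of the 127.

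**Figure D2:**
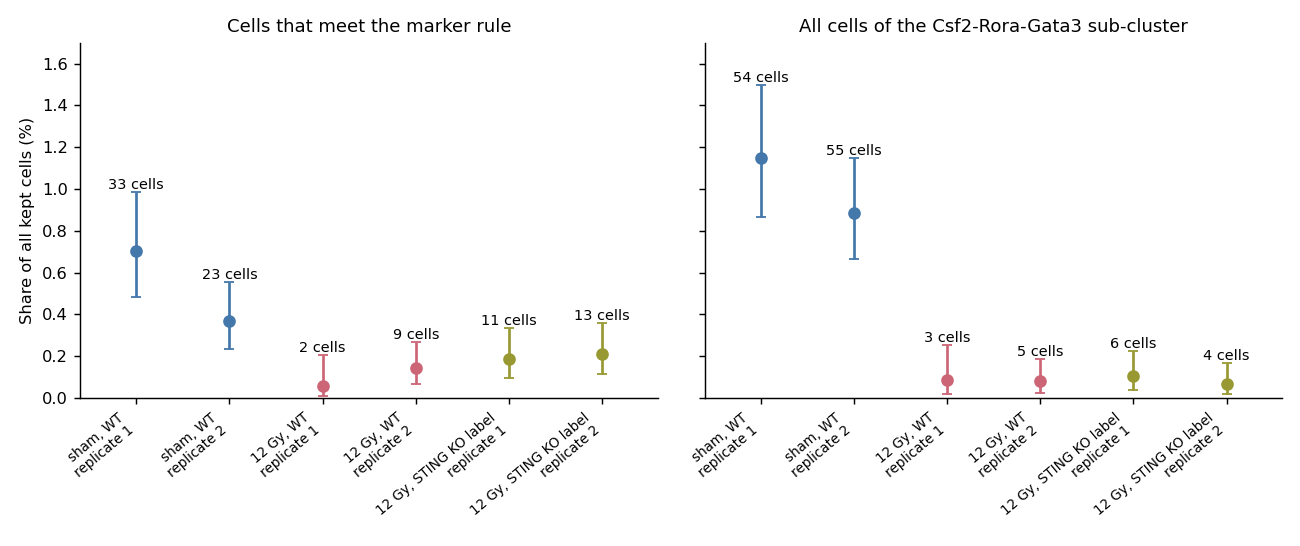
Share of all kept cells by library with exact binomial 95% intervals, for cells that met the marker rule (left) and for all cells of the sub-cluster (right), with the cell number above each point. The 2 sham libraries sit at 0.703% and 0.370% on the left and at 1.15% and 0.884% on the right, above the 4 irradiated libraries in both panels.

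Among the genes of the rule, the 2 transcription factors were the most widely seen in the 56 sham members: Rora, the retinoic acid receptor-related factor needed for these cells to develop, in 50 cells with 327 UMIs, and Gata3, the master factor of type 2 lymphocytes, in 49 cells with 136 UMIs. Il1rl1 was found in 43 cells (121 UMIs), Il17rb in 13 (22 UMIs), and Il7r, which every member had to hold, gave 176 UMIs. The 2 defining cytokines were in few cells: Il5, the eosinophil growth factor, in 6 (15 UMIs) and Il13, which drives mucus and alternative macrophage activation, in 7 (28 UMIs), with 1 cell holding both. Of the Il5 UMIs, 80.0% came from 3 cells, as did 78.6% of the Il13 UMIs. In the 35 irradiated members Il1rl1 was found in 29 cells (120 UMIs), Rora in 21 (82 UMIs), Gata3 in 13 (54 UMIs), Il17rb in 5 (7 UMIs), Il13 in 3 (16 UMIs) and Il5 in 2 (19 UMIs). Of the 13 irradiated members inside the sub-cluster, 13 held Rora, 13 Il1rl1 and 12 Gata3, and 14 of the 22 outside held Il1rl1 alone.

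The cytokine and receptor genes that define these cells lie at the following places in the mouse genome (GRCm38). Il5 (chromosome 11, 53720794 to 53725106), Il13 (chromosome 11, 53631324 to 53634702) and Csf2 (chromosome 11, 54247271 to 54249667) are neighbours in the type 2 cytokine region, and Il1rl1 lies on chromosome 1 (40429570 to 40465415). The 250 bases before each RefSeq start (GRCm38.p6) are shown because GATA3, whose gene is part of the rule, is a factor that binds GATA words. Capitals mark, on either strand, the word AGATAA, the word AGATAG, the word TGATAA and the word TGATAG.
Il5, chr11:53720544-53720793, plus strand: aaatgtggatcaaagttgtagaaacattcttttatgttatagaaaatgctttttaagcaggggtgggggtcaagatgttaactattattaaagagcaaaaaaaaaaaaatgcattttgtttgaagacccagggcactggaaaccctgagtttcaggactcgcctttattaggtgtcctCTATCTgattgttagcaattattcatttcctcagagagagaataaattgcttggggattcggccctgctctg
Il13, chr11:53634703-53634952, minus strand: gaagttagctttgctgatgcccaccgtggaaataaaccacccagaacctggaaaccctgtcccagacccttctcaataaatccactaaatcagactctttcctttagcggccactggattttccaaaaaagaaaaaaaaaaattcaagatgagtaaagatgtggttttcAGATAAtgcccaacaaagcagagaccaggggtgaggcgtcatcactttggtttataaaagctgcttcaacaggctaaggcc
Csf2, chr11:54249900-54250149, minus strand: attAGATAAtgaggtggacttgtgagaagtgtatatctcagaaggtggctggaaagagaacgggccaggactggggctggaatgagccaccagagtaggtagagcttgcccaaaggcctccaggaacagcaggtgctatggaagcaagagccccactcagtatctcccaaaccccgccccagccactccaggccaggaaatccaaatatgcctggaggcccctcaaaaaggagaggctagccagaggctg
Il1rl1, chr1:40429320-40429569, plus strand: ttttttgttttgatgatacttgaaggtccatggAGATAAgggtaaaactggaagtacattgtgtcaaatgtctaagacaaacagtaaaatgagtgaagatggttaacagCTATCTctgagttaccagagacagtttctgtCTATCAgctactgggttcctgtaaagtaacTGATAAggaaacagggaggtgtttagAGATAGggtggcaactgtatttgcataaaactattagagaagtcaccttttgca
The Il5, Il13 and Csf2 windows held 1 word each, beginning 72, 81 and 247 bases before the RefSeq start, and the window of this Il1rl1 start held 5. The RefSeq start of Csf2 lies upstream of the gene span given above, so its window does not adjoin that span. A second Il1rl1 start held 1, the Rora window held 1, and those of Gata3, Il17rb and Areg held none. Over all 32851 windows of this length in the table, 8718 (26.5%) held at least 1, so a single match is common. A match is a description of the letters and was not tested as a binding site.

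Most Il5, Csf2 and Il13 RNA of the sham hearts lay in the sub-cluster, while Il4 RNA did not (9 of 93 UMIs, 9.68%). Over all kept sham cells, it held 57 of 67 Il5 UMIs (85.1%), 34 of 41 Il17rb UMIs (82.9%), 340 of 427 Csf2 UMIs (79.6%), 50 of 70 Ccr8 UMIs (71.4%), 169 of 254 Arg1 UMIs (66.5%), 123 of 191 UMIs of Calca, which encodes the neuropeptide CGRP (64.4%), and 53 of 85 Il13 UMIs (62.4%). Its share was lower for genes that other cells of the heart also use: 39.3% of Gata3, 34.6% of Areg, 27.1% of Rora and 18.2% of Il1rl1 UMIs. Cells that met the rule held less of each, with 22.4% of the Il5, 31.6% of the Csf2 and 32.9% of the Il13 UMIs, since 62 sub-cluster cells failed it. These genes led or helped to define the sub-cluster, so the shares are a description. In irradiated hearts the sub-cluster, of 18 cells in all, held 20 of 52 Il5 UMIs (38.5%), 16 of 95 Il13 UMIs (16.8%), 17 of 194 Csf2 UMIs (8.76%) and 29 of 2308 Areg UMIs (1.26%). Il9, a growth factor gene of these cells in the lung, had 0 UMIs in all 6 libraries.

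**Figure D3:**
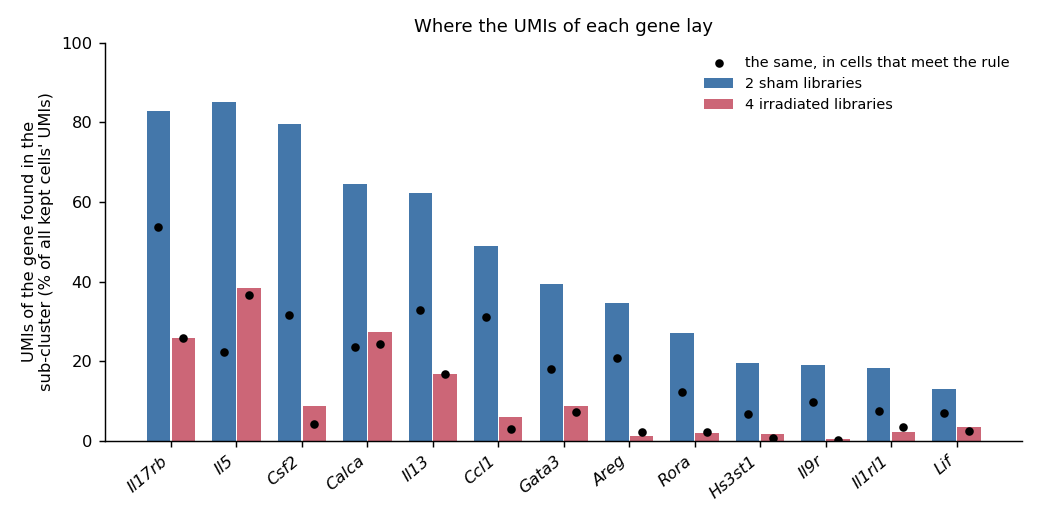
For each gene, the percentage of its UMIs over all kept cells that lay in the sub-cluster (bars) and in cells that met the rule (dots), pooled over the 2 sham or the 4 irradiated libraries. The sham bars reach 85.1% for Il5 and 79.6% for Csf2 but 34.6% for Areg and 18.2% for Il1rl1, and the irradiated bars reach at most 38.5%, for Il5.

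Over all kept cells, which no marker had chosen, several genes found in these cells stood at lower levels in irradiated hearts. Csf2 stood at 6.84 ± 2.08 CPM (SD, n = 2) in sham, 1.41 ± 1.60 (SD, n = 2) in irradiated WT and 0.624 ± 0.276 (SD, n = 2) in irradiated STING KO libraries. Gata3 stood at 11.8 ± 2.00, 4.56 ± 0.236 and 3.90 ± 0.557 CPM (SD, n = 2 each). Il5 stood at 1.15 ± 0.866, 0.158 ± 0.223 and 0.357 ± 0.00755 CPM (SD, n = 2 each). Calca stood at 3.07 ± 1.02, 0.778 ± 0.0888 and 0.394 ± 0.116 CPM (SD, n = 2 each). For these 4 genes, and for Rora, Il17rb, Il7r, Arg1, Ccr8, Ccl1, Bmp2, Tnfsf11 and Cxcr6, both sham libraries lay above all 4 irradiated ones. How often other genes showed this order was not counted, and Gata3, Il5, Rora, Il17rb and Il7r are genes of the rule. In sham hearts the sub-cluster held 2.67% of Bmp2, 11.0% of Il7r and 28.8% of Cxcr6 UMIs, so most of these lay in other cells. For Il1rl1, Il13, Areg, Lif, Il9r, Hs3st1, Klrg1, Il4, Ramp3 and Kit the sham and irradiated libraries overlapped. No test was made of these sums, and in them fewer cells and less RNA per cell cannot be told apart.

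The alarmins that these cells answer to were measured over the same kept cells, while stromal cells, a main source of them, are mostly CD45-negative. Il33, the ligand of ST2, stood at 3.90 and 1.79 CPM in sham, 0.700 and 2.19 in irradiated WT and 0.895 and 0.449 in irradiated STING KO libraries, with overlap between sham and irradiated WT. Tslp, which acts on these cells through a receptor containing Crlf2, stood at 13.9 and 11.7 CPM in sham, 7.04 and 6.14 in irradiated WT and 8.78 and 8.51 in irradiated STING KO libraries, without overlap between any 2 groups. Il25 had 0 UMIs in all 6 libraries.

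The secreted products of the sham members were spread unevenly over cells. Areg was found in 30 of 56 cells (53.6%) with 175 UMIs, of which 1 cell held 33. Csf2 was found in 30 of 56 (53.6%) with 135 UMIs, and 17 cells held both. Arg1, the arginase that these cells use to fuel their growth, was found in 33 of 56 (58.9%), Klrg1, an inhibitory receptor of activated cells, in 17 (30.4%), Calca in 14 (25.0%) and Lif, a ligand of the interleukin 6 family, in 11. Thinned to 2000 UMIs per cell, with 2 shallower cells left out, Areg was found in 22 of 54 cells (40.7%), Csf2 in 25 (46.3%), Il5 in 5 (9.26%) and Il13 in 4 (7.41%). In the sham T cell gate, thinned alike, Areg was found in 8 of 405 cells (1.98%), Csf2 in 6 (1.48%) and neither Il5 nor Il13 in any, which allows a share of up to 0.741% of cells with a UMI at that depth. Unthinned, Il5 was found in 3 and Il13 in 1 of 426 cells of this gate. In the sham NK gate Areg was found in 2 of 274 cells (0.730%) and Csf2 in 1 (0.365%). Unthinned, all other kept sham cells held Areg in 2.03%, Csf2 in 0.451%, Il5 in 0.201% and Il13 in 0.211% of 9969 cells, at a median of 4879 UMIs against 3529.5 in the members. Of 57 sham sub-cluster cells that failed the rule, 14 held Il5 and 9 Il13. Those outside the T cell and NK gates are among these 9969, so the shares do not measure the free RNA of the preparation alone.

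In irradiated hearts the shares differed between all cells that met the rule and those inside the sub-cluster. Unthinned, Areg was found in 9 of 35 irradiated members (25.7%), and in 7 of the 13 inside the sub-cluster (53.8%) against 28 of 52 (53.8%) in sham. Csf2 was found in 6 of 35 (17.1%), all 6 of them inside, where the share was 46.2% against 57.7% in sham. Arg1 was found in 9 of 35 (25.7%), and inside in 8 of 13 (61.5%) against 32 of 52 (61.5%) in sham. Klrg1 was found in 9 of 35 (25.7%), and inside in 9 of 13 (69.2%) against 16 of 52 (30.8%) in sham. The median depth inside was 4188 UMIs against 3549 in sham, and over all irradiated members 9252. These shares pool cells of 4 irradiated and of 2 sham libraries and were not tested.

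Levels within the summed members of a library (CPM, over 105049 and 98863 member UMIs in sham, 6909 and 73906 in irradiated WT and 122375 and 190310 in irradiated STING KO libraries) ran as follows. Areg stood at 876 and 839.5 CPM in sham, 434 and 40.6 in irradiated WT and 131 and 142 in irradiated STING KO members. Both sham libraries were above all irradiated ones, though 1 UMI was worth 145 CPM in the first irradiated WT library and at most 13.5 in the others. Csf2 stood at 695 and 627 CPM in sham, 145 and 13.5 in irradiated WT and 40.9 and 5.25 in irradiated STING KO members, again without overlap. Arg1 stood at 409 and 324, 579 and 67.7, and 57.2 and 36.8 CPM, with overlap between sham and irradiated WT. Calca stood at 238 and 202 CPM in sham, at 0 in both irradiated WT libraries and at 180.0 and 10.5 in irradiated STING KO members. Il5 stood at 47.6 and 101 CPM in sham, at 0 in irradiated WT and at 155 and 0 in irradiated STING KO members, and Il13 at 257 and 10.1, 0 and 0, and 57.2 and 47.3 CPM, so both cytokines were at 0 in irradiated WT members. Inside the sub-cluster alone, Areg stood at 924 and 909.6 CPM in sham, 434 and 0 in irradiated WT and 492 and 635 in irradiated STING KO members, where the first irradiated WT library rested on 3 UMIs. Arg1 stood there at 437 and 341, 579 and 809, and 215 and 556 CPM, and Calca at 244 and 227, 0 and 0, and 677 and 159 CPM, both with overlap between sham and irradiated STING KO members. Csf2 stood there at 742 and 705, 145 and 202, and 154 and 79.4 CPM, with both sham libraries above all irradiated ones. The irradiated Csf2 values rested on 2 UMIs in WT and 6 in STING KO members, and Csf2 led this sub-cluster. Inside it, 1 UMI was worth 145 and 202 CPM in irradiated WT and 30.8 and 79.4 in irradiated STING KO libraries. Il5 stood there at 50.8 and 114, 0 and 0, and 585 and 0 CPM, and Il13 at 254 and 11.4, 0 and 0, and 215 and 714 CPM. The 585 CPM came from 2 cells and the 714 CPM from 1.

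To set the members apart from other lymphocytes of the same hearts, their summed counts were tested against the T cell gate (1015 cells) and the NK gate (1111 cells) in 1 model of 18 sums with library as a block. Genes that chose a gate were left out of the gene lists and of the genes named. They stayed in the fits, so counts and shares over all genes, here and below, can include them. The outcome for such genes was set in part by the gates. Over the 6 libraries, 9.84% of genes differed from the T cell gate and 20.1% from the NK gate: 139 of 5977 genes (2.33%) were higher and 449 (7.51%) lower in members than in the T cell gate at an edgeR adjusted p under 0.05, and 467 (7.81%) were higher and 734 (12.3%) lower than in the NK gate. Of 28 type 2 innate lymphoid genes outside the rule, a list chosen with earlier results of these data known, 17 could be tested. Against the T cell gate 8 were higher (Arg1, Ptpn13, Areg, Il2ra, Pparg, Ltb4r1, Tnfrsf18 and Id2) and 4 lower (Thy1, Il18r1, Bcl11b and Cd69), with a median log2 fold change of 0.80 against -0.25 over all genes tested. Against the NK gate 10 were higher (Ptpn13, Areg, Arg1, Pparg, Il2ra, Ltb4r1, Ly6a, Bcl11b, Cxcr6 and Icos) and 2 lower (Il18r1 and Id2), with a median of 2.78 against -0.21. Members that carried genes of other cell types entered these sums. Thy1, Bcl11b and Cd69 took the opposite sign against T cells in the sham libraries alone (log2 fold changes of 0.19, 0.29 and 0.038, none past the threshold), and Pparg did (-0.62) without the second irradiated WT library. That library and the sham libraries also moved the counts of calls: 352 genes passed against T cells without the second irradiated WT library, 323 and 329 without the first or second sham library, against 588 with all, and 457 against NK cells without the second irradiated WT and 733 without the second sham library, against 1201.

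The same comparison in the 2 sham libraries, where most members lay in the sub-cluster, was added after the data were seen and let more type 2 genes be tested. Of all genes 10.3% differed from the T cell gate and 13.7% from the NK gate. Here 325 of 6879 genes (4.72%) were higher and 383 (5.57%) lower than in the T cell gate, and 561 (8.16%) higher and 383 (5.57%) lower than in the NK gate. Of the 28 type 2 genes 25 could be tested, and 20 were higher and 1, Il18r1, lower in each comparison. As list and members were chosen with earlier results of these data known, these counts are no independent check of the label. The median log2 fold change was 2.87 against T cells, where all genes tested had -0.16, and 4.65 against NK cells, where all genes had -0.15. Areg was 5.68 ± 0.32 (log2, SE) higher than in T cells (edgeR adjusted p = 1.94e-09) and 7.45 ± 0.42 higher than in NK cells, on 175 UMIs in members against 43 and 7. Csf2 was 4.95 ± 0.31 and 8.22 ± 0.47 higher (135 UMIs against 55 and 3), and Arg1 5.14 ± 0.42 and 7.36 ± 0.57 higher. Il9r, the receptor of a growth factor of these cells, was found with 17 UMIs in members, 1 in T cells and 0 in NK cells, at least 32.5-fold higher than in NK cells, by a floor of 3 UMIs over the group. Ptpn13, a tyrosine phosphatase, was 5.50 ± 0.41 and 7.52 ± 0.55 higher, Calca 4.26 ± 0.38 and 7.11 ± 0.56, Hs3st1, a heparan sulfate enzyme, 4.78 ± 0.36 and 5.98 ± 0.44, and Il2ra, the high-affinity subunit of the interleukin 2 receptor, 3.85 ± 0.29 and 7.06 ± 0.44. Nuclear receptor gene Pparg was 3.07 ± 0.64 and 6.38 ± 0.98 higher. Of the 28, Id2, a regulator gene shared by the innate lymphoid lineages, was 1.33 ± 0.15 higher than in T cells and at a log2 fold change of -0.09 ± 0.15 against NK cells (edgeR adjusted p = 0.790). Klrg1 was 2.65 ± 0.49 higher than in T cells and at -0.24 ± 0.38 against NK cells (edgeR adjusted p = 0.780).

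**Figure D4:**
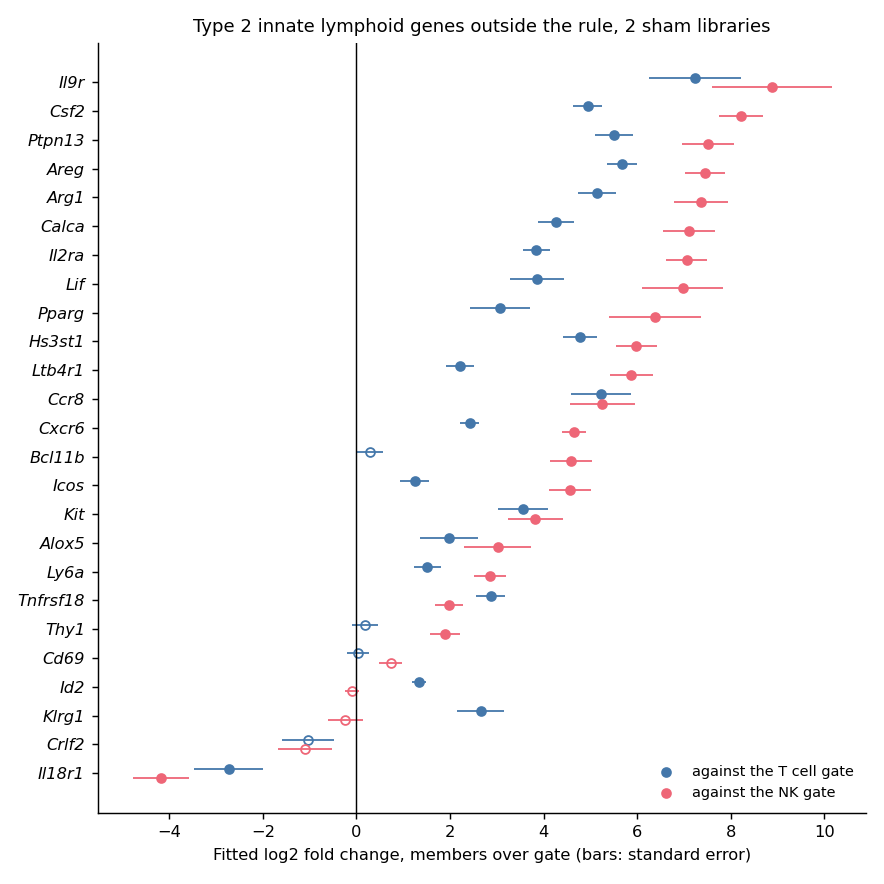
Fitted log2 fold change with standard error (derived from the F statistic) of the 25 tested type 2 innate lymphoid genes in the 2 sham libraries, members over the T cell gate (blue) and over the NK gate (red), filled where the edgeR adjusted p is under 0.05. For each gate 20 genes lie to the right of 0 with a filled point and Il18r1 lies to the left, at -2.73 and -4.18.

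The other gene lists described the sham members further. Of 15 tested secreted effectors, 8 were higher than in T cells (Areg, Csf2, Ccl1, Calca, Lif, Tnfsf11, Furin and Tgfb1) and 4 lower (Xcl1, Ccl5, Ccl4 and Ccl3), and the same 8 were higher than in NK cells with 5 lower, Ifng added. The inflammatory chemokine Ccl5 was at 0 and 4 UMIs in sham members against 8961 and 11050 in sham NK cells, and Xcl1 was at 0 in both sham libraries' members. Of 32 tested receptors, 16 were higher and 2 lower than in T cells, and 17 higher and 5 lower than in NK cells. Among them were the CGRP receptor subunits Ramp1 and Ramp3, the leukotriene receptors Cysltr1 and Ltb4r1, the prostacyclin receptor Ptgir, the stem cell factor receptor Kit and the TNF family receptors Tnfrsf18 and Tnfrsf25, all higher than in both gates. Ptgir stood at 24 UMIs in members against 21 in T cells and 0 in NK cells, at least 45.8-fold higher than in NK cells by the same floor. The interleukin 18 receptor gene Il18r1 held 2 and 0 UMIs in sham members against 109 and 149 in NK cells.

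Migration genes went both ways, where 4.72% of all genes were higher and 5.57% lower than in T cells, and 8.16% and 5.57% than in NK cells. Of 20 tested, 8 were higher and 6 lower than in NK cells. Against T cells 7 were higher (Ccr8, Ccr4, Cxcr6, Ccr2, Rgs2, Gpr183 and Itgb7) and 7 lower, among them Ccr7, S1pr1, S1pr4, Itgb1, Itgb2 and Cd44. Ccr7, which takes lymphocytes to lymph nodes, stood at 0 UMIs in both sham libraries' members against 232 and 438 in T cells, and S1pr1, the receptor for exit from tissue, at 1 and 0 against 177 and 378. Cxcr6, a homing receptor of tissue-resident lymphocytes, stood at 609 and 506 CPM in sham members, 127 and 88.8 in T cells and 32.1 and 22.4 in NK cells. Of 31 tested transcription factors 5 were higher than in T cells (Nfkb1, Gfi1, Pparg, Ikzf2 and Id2) and 6 lower (Eomes, Lef1, Id3, Zeb2, Tcf7 and Satb1), while against NK cells Bcl11b, which fixes the group 2 fate, was among 5 higher ones (4.58 ± 0.45) and Eomes and Tbx21, the group 1 factors, were at 0 UMIs in members against 149 and 193, and 90 and 111, in the NK cells of the 2 sham libraries. Of 27 tested immediate early and dissociation genes, 13 were higher than in T cells (for example Fosb, Nr4a1 and Nfkbia) with 3 lower, and 16 higher than in NK cells with 3 lower. Of 35 tested interferon-stimulated genes 2 were higher and 4 lower than in T cells, and of 18 tested cell cycle genes 0 were higher and 5 lower by edgeR. Against NK cells these lists gave 4 higher and 3 lower, and 0 and 1.

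Within the members, the 3 groups were compared on 1916 genes. Irradiated WT against sham gave 0 called genes (0%) at an edgeR adjusted p under 0.05; at an unadjusted p under 0.05 there were 339, and DESeq2 made 25 calls (7 higher and 18 lower). The 5 smallest p-values in each direction belonged to Crip1, H2-Ab1, H2-Aa, Cd74 and Slc6a6 among higher genes and Nabp1, Tpt1, Chd7, Csf2 and H3f3b among lower ones, with adjusted p from 0.14 to 0.16. The class II invariant chain Cd74 stood at 199.9 and 263 CPM in sham and 2316 and 17184 in irradiated WT members (log2 fold change 5.30 ± 1.06, SE), and in irradiated STING KO members at 15322 and 26699. Both sham libraries lay below all 4 irradiated ones, and the irradiated groups overlapped. Among members inside the sub-cluster Cd74 had a log2 fold change of 2.95 (edgeR adjusted p = 0.177). Over all cells of the sub-cluster its sign was reversed (-2.79), as were those of H2-Ab1 (-2.86) and H2-Aa (-3.14), and there the sham sums, which the bars of the rule had not cleared, carried 2819 and 3317 CPM of macrophage or monocyte markers against 249.9 and 257 in irradiated WT sums. Csf2 had a log2 fold change of -4.65 ± 1.06 (2 UMIs against 135 in sham) and the chromatin remodeller Chd7 one of -4.21 ± 0.86 (1 UMI against 47). The count depended on single libraries: it was 177 without the second STING KO library, 61 without the second irradiated WT library and 4 without the first. Of the 28 type 2 genes 21 could be tested and 0 passed, with a median of -1.80 against 0.08 over all genes.

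Irradiated STING KO against irradiated WT members gave 0 called genes (0%) in edgeR, where 63 had an unadjusted p under 0.05, and 0 in DESeq2. The smallest p-values belonged to Adam15, Isg15, Abi1, Fgfr1 and H2-DMb2 among higher and Ubald2, Hist1h1c, Gadd45b, Ppt1 and Klf9 among lower genes, all at an adjusted p of 1.00. Isg15, an interferon-stimulated ubiquitin-like protein, stood at 131 and 142 CPM in STING KO and 0 and 13.5 in WT irradiated members, and at 66.6 and 50.6 in sham. Of 10 tested interferon-stimulated genes 0 passed, with a median of -0.05 against 0.16 over all genes. With 2 and 9 cells in the irradiated WT libraries, 3 UMIs in the first correspond to 434 CPM.

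Irradiated STING KO against sham members called 53 of 1916 genes (2.77%), 38 higher (1.98%) and 15 lower (0.783%), with 89 calls by DESeq2. This comparison shares its sham libraries with that of irradiated WT hearts. The genes named here passed at an edgeR adjusted p close to the threshold (0.0492 to 0.0497). Csf2 fell, from 135 UMIs in sham to 6 (log2 fold change -4.94 ± 0.83, and -2.43 inside the sub-cluster, edgeR adjusted p = 0.0617), as did the chemokine gene Ccl1, from 39 to 1 (-5.47 ± 0.94), the adaptor Skap1 (-3.73 ± 0.71), the chromatin organiser Satb1 (-2.96 ± 0.57) and Nabp1 (-2.59 ± 0.47). In pooled CPM over all members, Ccl1, Skap1, Satb1 and Nabp1 were 59.8-, 14.4-, 8.32- and 6.13-fold lower than in sham. Inside the sub-cluster they were 9.44-, 2.49-, 1.33- and 2.09-fold lower, Ccl1 on 1 UMI. The growth factor gene Bmp2 fell from 36 UMIs to 0, at least 18.4-fold by the floor over all members. Inside the sub-cluster, where 35 sham UMIs stood against 0, the floor allowed only at least 2.82-fold. Among the higher genes, 9 of the 10 with the largest fold had 0 UMIs in sham members: Mrc1, Stmn1, Napsa, H2-DMb2, Eps8, Clec4b1, Pid1, Fgfr1 and Clec4a2. The mannose receptor gene Mrc1, a macrophage marker, had 101 UMIs, at least 21.96-fold higher, and the class II chaperone gene H2-DMb2 had 94, at least 20.4-fold higher. Both were at 0 UMIs in every group inside the sub-cluster. The tenth, H2-DMa, had 277 UMIs against 1. Of 21 tested type 2 genes Csf2 alone passed, with a median of -2.35 against 0.21 over all genes. Leaving out either sham library left 0 genes past the edgeR threshold, and without any 1 of the 4 irradiated libraries 146 to 221 did. Among members inside the sub-cluster 0 of 358 genes passed in edgeR, where 23 had an unadjusted p under 0.05.

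The same fit tested whether the effect of each condition differed between members and the other gates. The radiation effect differed from that in the T cell gate for 1.49% of 5977 genes (45 higher in members, 0.753%, and 44 lower, 0.736%) and from that in the NK gate for 2.49% (37 higher, 0.619%, and 112 lower, 1.87%). The effect of the genotype label differed from that in the T cell gate for 2 genes (0.0335%), Adam15 with a higher (0.0167%; -0.31 and not past the threshold inside the sub-cluster) and Cxcl1 with a lower effect in members (0.0167%), and from that in the NK gate for 1, H2-DMb2 with a higher effect (0.0167%). For radiation 0 genes passed in edgeR once either sham library was left out.

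Genes of other cell types differed between the libraries, and not always by group. The summed level of 11 macrophage or monocyte markers was 238 and 738 CPM in sham members, 145 and 4871 in irradiated WT and 3596 and 7015 in irradiated STING KO members, and 7 dendritic cell markers stood at 0 and 0, 0 and 555, and 490.3 and 1540 CPM. The 6 neutrophil markers stood at 866 and 13362, 0 and 67.7, and 57.2 and 6479 CPM. In the second sham library 1 member held 694 of the 703 UMIs of the neutrophil marker S100a8. Endothelial markers reached 9054 CPM in the first STING KO library, where 1 member lay in an endothelial cluster. Mural markers reached 5182 CPM in the second irradiated WT library, where 1 member lay in a mural cluster. Inside the sub-cluster macrophage or monocyte markers stood at 193 and 352 CPM in sham, 145 and 202 in irradiated WT and 523 and 556 in irradiated STING KO members, and dendritic markers at 0 in all libraries but 1, at 30.8 CPM. The 10 NK markers were at 0 in 5 of 6 libraries there, with Ncr1, Prf1, Eomes and Tbx21 at 0 in all. T cell markers stood at 26.3 to 895 CPM over all members, with Cd4, Cd8a, Cd8b1, Cd5 and Cd6 at 0 in all 6 libraries. Their part in the results of the irradiated members was not tested.

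**Figure D5:**
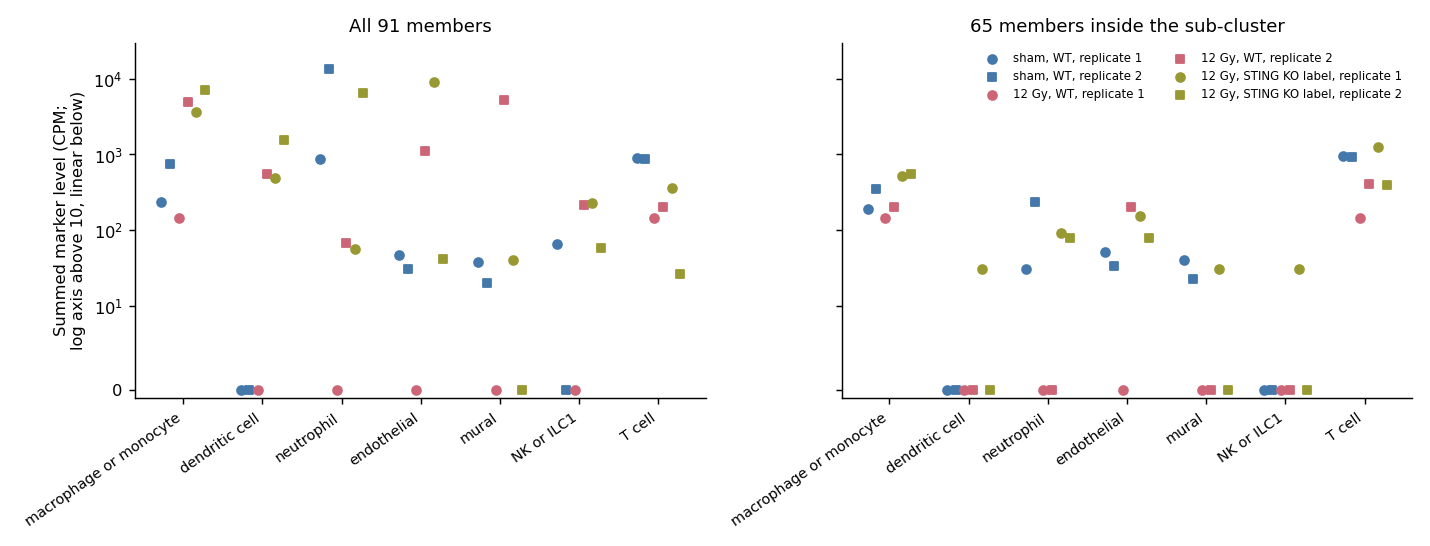
Summed level of the markers of 7 other cell types in each library (CPM, log axis above 10 and linear below), for all 91 members (left) and for the 65 inside the sub-cluster (right); colours give the group and shapes the replicate. On the left macrophage or monocyte markers reach 7015 CPM in irradiated members against 738 at most in sham ones, and on the right the same markers do not exceed 556 CPM in any library.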

How the data were processed

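Per the submitters' processing notes, the data were processed with Cell Ranger 5.0.0 and Seurat 3 on the mouse build mm10; the deposited values used here are whole-number UMI counts per gene and barcode in the 6 libraries, made with the Chromium 3′ v3 kit, per the labels' protocols. Libraries held 31650962 to 59675213 UMIs, and kept cells a median of 4517 to 7018.5. From 45904 barcodes, 32761 cells with at least 200 genes and at most 10% mitochondrial UMIs were kept. The automatic threshold of the doublet caller marked at most 3 cells per library and so did not work; doublets were kept, and removing the highest scores (0.8% per 1000 cells) was an alternative. Library pairs shared 4 to 30 barcodes.

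The members and gene lists were chosen with earlier results of these data known. Clusters were made with scanpy 1.11.5 (2000 variable genes, 30 components, 15 neighbours, Leiden resolution 1). Counts were summed per library and gate and tested with edgeR 4.0.16 (R 4.3.3) by its quasi-likelihood test with TMM factors, filterByExpr and Benjamini-Hochberg adjustment: the 3 groups together, and members with the T cell and NK gates with library as a block, including the difference of each effect between gates. DESeq2 1.42.0 was an alternative, with the other settings in the closing section. Shares were tested by exact permutation (scipy 1.17.1) and given exact binomial intervals. In counts simulated from the mean levels of these libraries, edgeR recovered 59.5% of genes changed 4-fold and 80.0% of those changed 8-fold between groups. The simulated spread was fixed, the same for every gene and not taken from these libraries. These shares therefore do not give the power of the real comparisons. CPM is the count scaled to a fixed total of UMIs per library and gate. The SE of an edgeR fold is its absolute log2 fold change divided by the square root of its quasi-likelihood F statistic. It was not taken from the fitted coefficient itself. Gene coordinates came from the annotation for 32158 of 32285 genes (99.6%), promoters from RefSeq.

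Named genes were those of the rule, list members past the threshold, the 10 largest folds in each direction among called genes, and, where fewer than 5 passed, the 5 smallest p-values in each direction. Gate, immunoglobulin, T cell receptor, ribosomal, mitochondrial, Y-linked, Xist and unnamed genes were left out, and some genes that the rule names are not reported here. For differences between gates, values are given where every arm held UMIs and the other calls as counts. Levels over all kept cells, detection per cell and the sham comparison were described after the data were seen.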

Additional observations from a re-analysis of the deposited data

Results flagged for a closer look

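The difference between irradiated WT and sham hearts was not the same in members as in the other lymphocytes of the same libraries, by the test of that difference in the edgeR fit of 3 gates. Against the T cell gate 89 of 5977 genes (1.49%) passed an adjusted p of 0.05, 45 with a higher and 44 with a lower effect in members. Ramp3, a subunit of the CGRP receptor, had a difference in log2 effect of -4.74 ± 0.784 (SE, edgeR adjusted p = 0.00549), Chd7 of -4.37 ± 0.993 (adjusted p = 0.0275) and Nabp1 of -3.58 ± 0.600 (0.00549). The oxysterol receptor Gpr183 had -3.43 ± 0.762 (0.0244), the costimulator Icos -2.98 ± 0.734 (0.0439) and Zc3hav1 -2.88 ± 0.512 (0.00929). These 6 were lower in members relative to T cells. Among members inside the sub-cluster 2 of the 6, Nabp1 and Zc3hav1, still passed, over all sub-cluster cells 0 did, and without the second irradiated WT library 0 did.

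Against the NK gate 149 of 5977 genes (2.49%) passed, 37 higher and 112 lower. Klk8 had a difference of -5.92 ± 1.59 (edgeR adjusted p = 0.0499), Chd7 of -4.78 ± 0.974 (0.0144), Arhgef6 of -4.16 ± 1.06 (0.039), Snhg15 of -4.00 ± 0.788 (0.013), the lymphotoxin gene Ltb of -3.94 ± 0.787 (0.0137) and Gpr183 of -3.93 ± 0.968 (0.0325). The pericyte gene Rgs5 had 11.44 ± 1.96 (0.00909), beside mural markers of 5182 CPM in the members of 1 irradiated WT library, and its sign was reversed among members inside the sub-cluster.

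The effect of the genotype label after irradiation differed from that in the T cell gate for 2 genes (0.0335%): Adam15 with 4.50 ± 0.798 (edgeR adjusted p = 0.0408; -0.31 inside the sub-cluster, adjusted p = 1.00, and 0.344 by DESeq2) and the chemokine Cxcl1 with -5.46 ± 0.918 (0.0408). It differed from that in the NK gate for 1 gene (0.0167%), H2-DMb2, with 6.17 ± 0.899 (0.00711). Macrophage and dendritic cell markers stood above sham in the members of every irradiated library but the first irradiated WT one, and their part was not tested. Without either sham library 0 genes passed for the radiation effect by edgeR against either gate, and without 1 irradiated library 104 to 349 passed against T cells and 126 to 307 against NK cells. Without the second irradiated WT library none of the 6 genes named against T cells and none of the 7 named against NK cells passed.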

How the results depend on the processing

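The 3 differences in share kept their direction under every alternative run. The ratio of irradiated WT to sham ranged from 0.0810 to 0.279, and that of STING KO to WT after irradiation was 1.11 with the rule applied after thinning, 1.33 with at least 4 required UMIs and 1.02 over all sub-cluster cells. Leaving out 1 library at a time gave differences of -0.603 to -0.270 percentage points for irradiated WT against sham, 0.0573 to 0.142 for STING KO against WT and -0.504 to -0.171 for STING KO against sham.

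Counts of called genes moved more, and the causes were not tested. Without 1 library at a time they ran from 0 to 177 for radiation, 0 to 1 for genotype, 0 to 221 for STING KO against sham, 323 to 623 against T cells and 457 to 1250 against NK cells. For the differences between gates they ran from 0 to 349 (radiation, T), 0 to 307 (radiation, NK), 0 to 46 (genotype, T) and 1 to 103 (genotype, NK). The radiation count, 0, was 25 with DESeq2, 11 over all sub-cluster cells, 4 in the main cluster and 136 with no filter on low counts. The genotype count, 0, was 1 over all sub-cluster cells and 34 with no filter. The count of STING KO against sham, 53, was 89 with DESeq2, 15 over all sub-cluster cells, 9 with at least 4 required UMIs, 329 with no filter and 355 with only the 4 libraries compared. It was 0 by edgeR with at most 5% mitochondrial UMIs, after thinning, in the main cluster and for members in the sub-cluster. Against T cells 588 became 1039 over all sub-cluster cells, 204 at 5% mitochondrial UMIs, 1186 with no filter, 1066 after thinning, 947 in the main cluster and 1125 for members in the sub-cluster. Against NK cells 1201 became 634 at 5% mitochondrial UMIs and 1850 with no filter.

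For radiation against T cells 89 became 142 with DESeq2, 32 over all sub-cluster cells, 178 with at least 4 required UMIs, 9 at 5% mitochondrial UMIs, 253 with no filter, 142 after thinning and 179 for members in the sub-cluster, and RLE factors gave 47 higher and 28 lower. For radiation against NK cells 149 became 90 over all sub-cluster cells, 70 at 5% mitochondrial UMIs, 276 with no filter and 226 for members in the sub-cluster. For genotype against T cells 2 became 0 with DESeq2, 5 with at least 4 required UMIs, 1 with RLE factors, 1 at 5% mitochondrial UMIs, 54 with no filter, 1 after thinning, 29 in the main cluster and 8 for members in the sub-cluster. For genotype against NK cells 1 became 17 with DESeq2, 0 over all sub-cluster cells, 6 with at least 4 required UMIs, 9 at 5% mitochondrial UMIs, 78 with no filter, 14 after thinning, 12 in the main cluster and 34 for members in the sub-cluster.

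Signs were reversed over all sub-cluster cells for H2-Ab1 (-2.86), H2-Aa (-3.14), Cd74 (-2.79) and Tpt1 (0.013) under radiation, Cd44 against NK cells (-0.043) and Rgs5 (-0.74). After thinning they were reversed for Tpt1 (0.047), Tgfb1 (-0.20) and Cd44 (-0.25) against NK cells. Without 1 library at a time Pparg against T cells ran from -0.62 to 2.75, Tgfb1 against T cells from -2.65 to 1.00 and Tgfb1 against NK cells from -2.70 to 0.85, the low ends all without the second irradiated WT library. In sham libraries alone they were reversed against T cells for Thy1 (0.19), Bcl11b (0.29) and Cd69 (0.038). For members in the sub-cluster they were reversed for Cd44 (-0.28), Rgs5 (-2.15) and Adam15 (-0.31), and Rgs5 was at -1.54 both with at least 4 required UMIs and in the main cluster.

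With the replicate number of the titles as a block, radiation and genotype stayed at 0 calls by edgeR and STING KO against sham gave 94. Deviations of same-numbered libraries correlated at 0.0813, 0.146 and 0.145, so the numbers were not taken as pairs. Depth limits the irradiated WT sums, where 1 UMI was worth 145 CPM in the first library.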
